A study of Mus musculus with 32 samples.

Results

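Mfsd7c, Ttpa, Tfr2 and Tcn2 are 4 mouse genes that encode proteins moving haem, vitamin E, iron and vitamin B12. They were taken by symbol from the lists of genes that the authors called changed in fat after loss of adipocyte Bcl6, and they were picked because their changes there were large. The change of Tcn2 was the smallest, down to 1.32-fold in female inguinal fat in the authors' deposited table. All 4 were found among the 2480 genes listed in at least 1 of 3 fat comparisons. Mfsd7c, the files' name for Flvcr2, was listed in all 3 comparisons, as were Tfr2 and Tcn2, and Ttpa was listed in female inguinal fat only. Because the choice rests on the difference between genotypes, that difference is described for these genes and not tested.

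The data are poly(A) RNA sequencing of C57BL/6 mice in which every animal carried loxP-flanked Bcl6 alleles (Bcl6 fl/fl). Control mice (WT) had no Cre, and knockout mice (AKO) also carried Adipoq-Cre, a recombinase transgene under the promoter of the adiponectin gene, a promoter used to target adipocytes. No group carried Cre without the floxed alleles, so effects of Bcl6 loss and of the transgene cannot be told apart, and ages are not given in the labels. The 32 samples form 8 groups of 4 mice, WT and AKO for male inguinal fat, female inguinal fat, male perigonadal fat and male liver. Male inguinal and perigonadal samples came from the same animals, by the animal numbers in the labels. Read counts per library were analysed for the 16 inguinal samples, and for perigonadal fat only the authors' deposited table was used. None of the 4 genes was among the 37 genes listed for liver.

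Micronutrients that cannot cross membranes or circulate freely are handled by dedicated carriers. Haem and choline are moved by major facilitator proteins such as the product of Mfsd7c. Vitamin E is passed between membranes inside hepatocytes by the tocopherol transfer protein that Ttpa encodes. Transferrin receptor 2, the product of Tfr2, binds iron-loaded transferrin and serves in hepatocytes and red cell precursors as a sensor of iron supply. Transcobalamin, the product of Tcn2, is the plasma protein that delivers vitamin B12 to cells.

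The libraries differed in depth. The total count in the listed genes ran from 592820 to 2603509 in male and from 864592 to 4072659 in female inguinal fat, which is not the depth of the whole library. The authors' size factors, a measure of relative depth recovered from their means, ran from 0.372 to 1.16 in male WT and from 0.760 to 1.74 in male AKO libraries. In females they ran from 0.402 to 1.02 in WT and from 1.15 to 1.59 in AKO libraries, without overlap, and the part of this depth gap in the values below was not tested. Normalized counts below are raw counts divided by these factors. Bcl6 was listed in females only, at 988 to 1442 normalized counts in WT and 2295 to 2800 in AKO libraries, and whole-gene counts do not separate the recombined part. Of the adipocyte genes, Adipoq was listed in females only, at 45320 to 50391 normalized counts in WT and 61301 to 74578 in AKO libraries, the only one of 12 adipocyte markers listed there. Of the 12, 3 were listed in male inguinal fat, Plin1, Pnpla2 and Cebpa, all lower, with a summed level of 64038 to 82506 in WT and 46942 to 57028 in AKO libraries. In perigonadal fat 4 were listed, Plin4, Cidec, Lipe and Pnpla2, all lower, and the part of these falls in the members' values was not tested. Beside these counts, 5.83% of all genes tested were listed in female inguinal, 8.56% in male inguinal and 11.1% in perigonadal fat. The share listed lower was 4.01% in male inguinal and 5.46% in perigonadal fat. In bulk tissue, fewer cells of a type and less RNA per cell cannot be told apart.

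Mfsd7c was the most changed of the 4 genes in every comparison. It encodes a multi-pass membrane carrier described as a haem importer and later as a choline transporter of brain vessels. The gene lies on mouse chromosome 12 (mm10, 85746539 to 85813585, plus strand), has 11 merged exons in GENCODE M21 and overlaps no other annotated gene. In male inguinal fat the 4 WT libraries held 26.8, 28.4, 25.9 and 18.8 normalized counts, from 10 to 30 raw counts each. The 4 AKO libraries held 448.1, 448.1, 418 and 434 normalized counts, from 2391 raw counts in all. The coefficient of variation was 3.24% in AKO and 17.0% in WT libraries, whose low raw counts carry more counting error. The 10 reads of WT replicate 1 have an exact 95% Poisson interval of 4.8 to 18.4, for counting error only. The lowest AKO library lay far above the highest WT library. The edgeR fit put AKO 17.6-fold above WT (log2 fold 4.14 ± 0.12 SE, n = 4 per group).

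In female inguinal fat, whose counts were normalized apart from those of males, Mfsd7c was also far higher in AKO. The WT libraries held 127, 88.4, 126 and 117 normalized counts and the AKO libraries 884, 842, 704 and 809. The groups again did not overlap, and the fitted AKO level was 7.14-fold above WT (log2 fold 2.84 ± 0.14 SE, n = 4 per group). For perigonadal fat, the authors' deposited table gives Mfsd7c a mean of 656 normalized counts and a log2 fold of 3.06 ± 0.18 SE, beside 3.86 ± 0.15 for inguinal fat of the same males and 2.65 ± 0.14 for females in the authors' deposited table. By size of rise, Mfsd7c ranked 2 of 570 listed genes in male inguinal fat, 7 of 434 in female inguinal fat and 6 of 759 in perigonadal fat in the authors' deposited table.

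Promoters are shown for Mfsd7c, the most raised member, and Tfr2, the one that was lower in AKO. The sequences are the 250 bases before the annotated start, from a set of RefSeq promoters (GRCm38.p6, the assembly of mm10). The set used here held a promoter for these 2 of the 4 genes only, so none is shown for Ttpa or Tcn2. Shown are the Mfsd7c window at chr12:85746289-85746538 and the Tfr2 window at chr5:137569590-137569839, the first of 3 annotated Tfr2 starts, both on the plus strand. Capitals mark CACGTG.

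Mfsd7c promoter: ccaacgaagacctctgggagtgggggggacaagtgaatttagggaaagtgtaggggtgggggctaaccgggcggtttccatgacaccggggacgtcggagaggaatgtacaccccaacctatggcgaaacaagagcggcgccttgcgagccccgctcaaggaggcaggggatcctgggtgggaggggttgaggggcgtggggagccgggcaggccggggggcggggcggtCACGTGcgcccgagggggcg

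Tfr2 promoter: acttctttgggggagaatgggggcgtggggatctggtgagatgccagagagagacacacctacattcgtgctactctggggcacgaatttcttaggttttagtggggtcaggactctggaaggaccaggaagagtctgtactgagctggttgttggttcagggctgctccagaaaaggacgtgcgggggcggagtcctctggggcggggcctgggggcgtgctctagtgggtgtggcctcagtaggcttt

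The Mfsd7c window held 1 CACGTG, the letters of the E-box, beginning at position -20 from the start site, and 6.02% of the 32817 RefSeq windows of the same length hold at least 1. This motif was searched after the sequence had been read. TTCNNNGAA, the spaced palindrome common to STAT and BCL6 sites, was found in neither window, nor in those of the other Tfr2 starts, and 7.01% of all windows hold it. Both motifs read the same on either strand and do not overlap each other here. The G and C content was 68.0% in the Mfsd7c window and 58.4% in that of Tfr2, against a median of 52.4% over all windows. These matches are letters in a window and show no binding.

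Ttpa, the vitamin E transfer protein gene, lies on chromosome 4 (20007938 to 20030785, plus strand) and overlaps no other annotated gene. In female inguinal fat the WT libraries held 351, 312, 296 and 298 normalized counts. The AKO libraries held 1253, 1056, 973 and 1251. The groups were separated by a wide gap, and the fitted AKO level was 3.62-fold above WT (log2 fold 1.86 ± 0.11 SE, n = 4 per group). Ttpa ranked 15 of 434 rises by size in the authors' deposited table. It was not listed for male inguinal or perigonadal fat, and whether it was untested or tested and not called there is not known from the lists, so no difference between the sexes or depots can be stated for it. Beside Ttpa, 15 other genes of vitamin E handling had been put on a list. None of them was listed in males, and in females the lipoprotein lipase gene Lpl, which releases lipids from circulating particles, was listed higher, from 130953 to 173828 normalized counts on average (log2 fold 0.41 ± 0.09 SE). The listed share of all genes tested was 8.56% in male inguinal, 11.1% in perigonadal and 5.83% in female inguinal fat. With 15 genes, nothing is read from these counts.

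Tfr2 was the member that was lower in AKO fat. It lies on chromosome 5 (137569840 to 137587481, plus strand), has 11 annotated transcripts in GENCODE M21 and overlaps no other annotated gene. In male inguinal fat the WT libraries held 83.2, 20.7, 52.6 and 58.6 normalized counts and the AKO libraries 19.6, 13.2, 10.5 and 10.7. The groups did not overlap, but WT replicate 2 lay just above AKO replicate 1. Raw counts were low, from 19 to 61 in WT and from 8 to 30 in AKO libraries, and the lowest, 8 reads, has an exact 95% Poisson interval of 3.45 to 15.8 for counting error only. The edgeR fit put AKO 3.62-fold below WT (log2 fold -1.86 ± 0.39 SE, n = 4 per group).

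In female inguinal fat the WT libraries held 94.6, 63.0, 97.8 and 146 normalized counts of Tfr2. The AKO libraries held 22.8, 14.5, 45.1 and 12.2, so that AKO replicate 3 stood above the other AKO libraries and below every WT library. The edgeR fit put AKO 4.36-fold below WT (log2 fold -2.13 ± 0.41 SE, n = 4 per group). The authors' deposited table gives Tfr2 log2 folds of -1.30 ± 0.29 SE in male inguinal, -1.26 ± 0.27 in female inguinal and -1.61 ± 0.29 in perigonadal fat. The edgeR folds are larger in size than the authors' in both inguinal tables, so edgeR and deposited folds are not one measure. In perigonadal fat its mean in the authors' deposited table was 14.4 normalized counts, the lowest of the members.

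Tcn2 had the highest counts and the smallest change of the members. It lies on chromosome 11 (3917192 to 3932159, minus strand) and overlaps no other annotated gene. In male inguinal fat the WT libraries held 2325, 2576, 2686 and 2376 normalized counts and the AKO libraries 4676, 4115, 4314 and 4289. Replicates varied little, with coefficients of variation of 6.81% in WT and 5.42% in AKO, and the fitted AKO level was 1.74-fold above WT (log2 fold 0.80 ± 0.07 SE, n = 4 per group). In female inguinal fat the WT libraries held 4967, 4763, 5202 and 4370 normalized counts and the AKO libraries 6242, 6367, 7056 and 5995. The groups did not overlap here either, and the fitted AKO level was 1.33-fold above WT (log2 fold 0.41 ± 0.08 SE). In perigonadal fat the authors' deposited table gives Tcn2 a mean of 8271 normalized counts and a log2 fold of 1.00 ± 0.08 SE, beside 0.79 ± 0.07 in inguinal fat of the same males. By size of rise in those tables, Tcn2 ranked 110 of 570 listed genes in male inguinal fat. It ranked 302 of 434 in female inguinal and 89 of 759 in perigonadal fat.

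**Figure D1:**
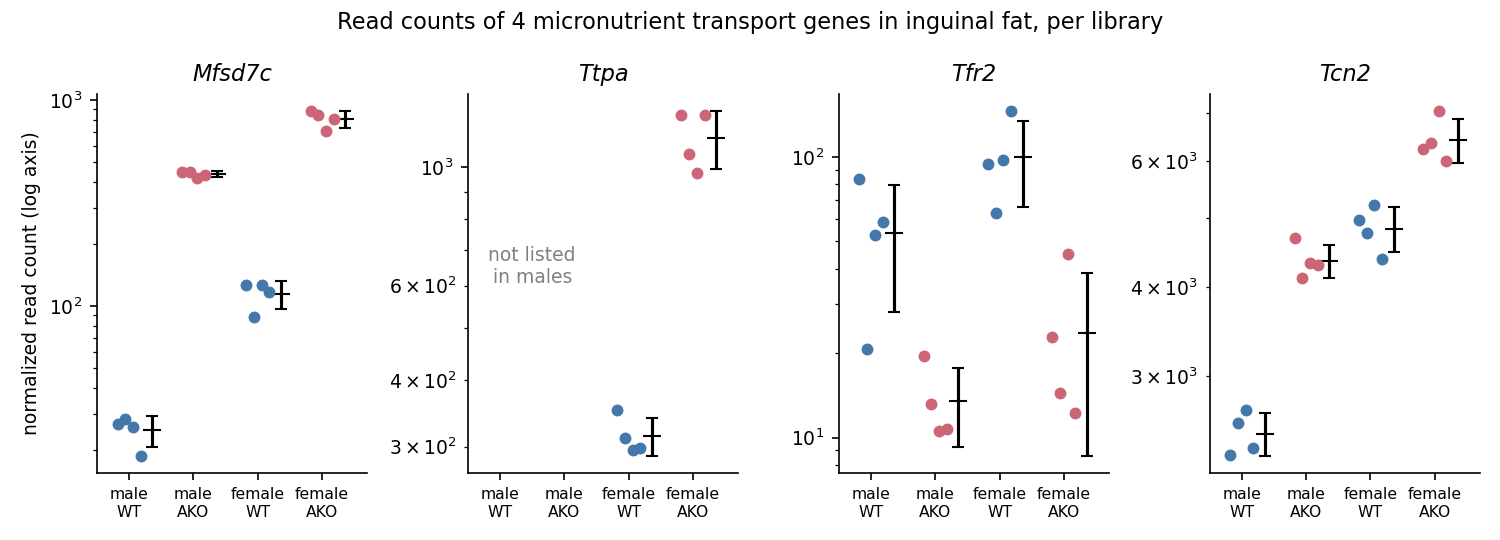
Normalized read counts of the 4 genes in each inguinal library on log axes, with blue points for WT, red points for AKO and black marks for the mean ± SD of 4 libraries. WT and AKO points do not overlap in any panel within a sex, the gap is widest for Mfsd7c (24.97 against 437 on average in males) and the points are most scattered for Tfr2.

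**Figure D2:**
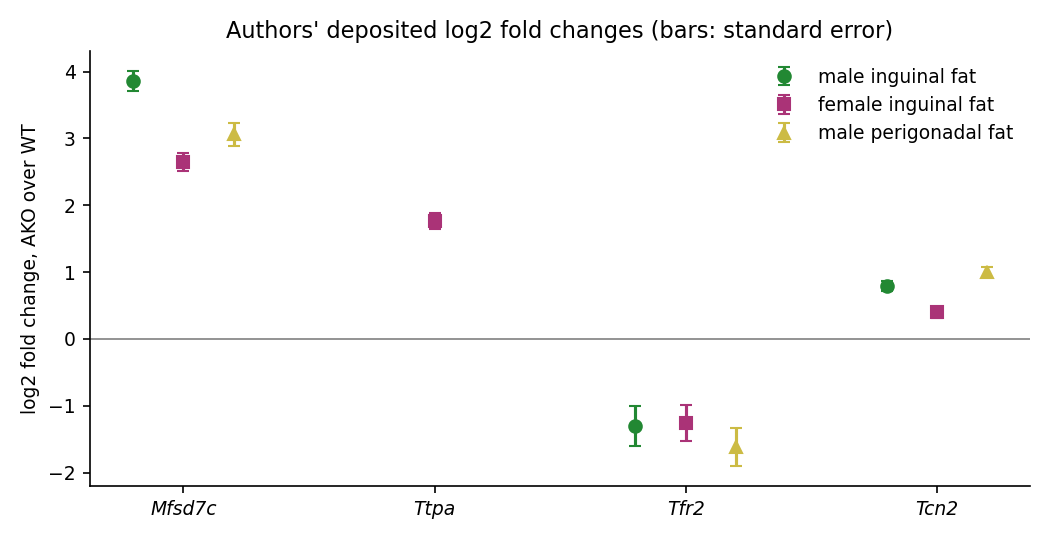
Log2 fold change of AKO over WT from the authors' deposited tables for the 4 genes in male inguinal, female inguinal and male perigonadal fat, with bars for the standard error. Mfsd7c and Tcn2 lie above 0 and Tfr2 below 0 in all 3 tables, and Ttpa has a value for females only.

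In all, 3 of the 4 genes were listed in male inguinal fat, where 8.56% of the 12554 genes tested were listed, 4 in female inguinal fat, where 5.83% of 13546 were listed, and 3 in perigonadal fat, where 11.1% of 13361 were listed. In male inguinal fat 2 members were higher and 1 lower, where 4.54% of all genes were listed higher and 4.01% lower. In female inguinal fat 3 were higher and 1 lower, against 3.2% and 2.63% of all genes, and in perigonadal fat 2 were higher and 1 lower, against 5.68% and 5.46%. Among the listed genes, 90.8% in males and 89.1% in females had no overlap of WT and AKO libraries, as these members had. Since the members were chosen from these same lists, nothing is read from these counts.

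Levels of different genes were compared per length of exon. In females, the WT levels were 2216 ± 162 normalized counts per kilobase for Tcn2, 90.1 ± 7.31 for Ttpa, 32.7 ± 5.17 for Mfsd7c and 23.2 ± 7.91 for Tfr2 (SD, n = 4). The last pair overlapped, at 25.2 to 36.2 per kilobase for Mfsd7c and 14.5 to 33.7 for Tfr2. In female AKO libraries the levels were 2945 ± 208 per kilobase for Tcn2, 325 ± 40.4 for Ttpa, 231 ± 21.9 for Mfsd7c and 5.45 ± 3.46 for Tfr2, in the same order as in WT. In male WT libraries Mfsd7c, at 7.13 ± 1.21 per kilobase, and Tfr2, at 12.4 ± 5.93, also overlapped. In male AKO libraries they stood apart at 125 ± 4.02 and 3.12 ± 0.976.

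The sexes were compared to see whether inguinal fat of males and females responded to the same extent. This difference between the sexes was not what the members were picked for, but large changes in either sex were, so the comparison is not free of the choice. The interaction of sex and genotype was tested with edgeR over the 290 genes listed in both sexes, of which 1.72% passed an adjusted p of 0.05. The spread and the adjustment rest on these genes alone, all called for genotype, so SE and p may be too small. The log2 fold of Mfsd7c was 4.14 in male and 2.84 in female inguinal fat. Its difference of 1.30 ± 0.20 SE passed (edgeR adjusted p = 0.00094) and ranked 1 of 290 by p. The male change started from a WT count of 24.97 ± 4.23, the female one from 115 ± 18.1 (SD, n = 4). These levels come from tables normalized separately, so the WT levels of the sexes were not tested against each other.

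For Tcn2 the log2 fold was 0.80 in males and 0.41 in females. The difference of 0.39 ± 0.12 SE did not pass (edgeR adjusted p = 0.122, unadjusted p = 0.00379), although it did with DESeq2 and with each scaling computed from the table (adjusted p from 0.00235 to 0.0473). Those scalings shifted the difference of all 290 genes by a median of 0.072 to 0.230. For Tfr2 the log2 fold was -1.86 in males and -2.13 in females. The difference of 0.26 ± 0.61 SE did not pass (edgeR adjusted p = 0.911), its SE is wide against a median of 0.174 over the 290 genes, and it does not show that the sexes respond alike. The 2 sexes were separate sets of mice by their animal numbers, so sex and set cannot be told apart.

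**Figure D3:**
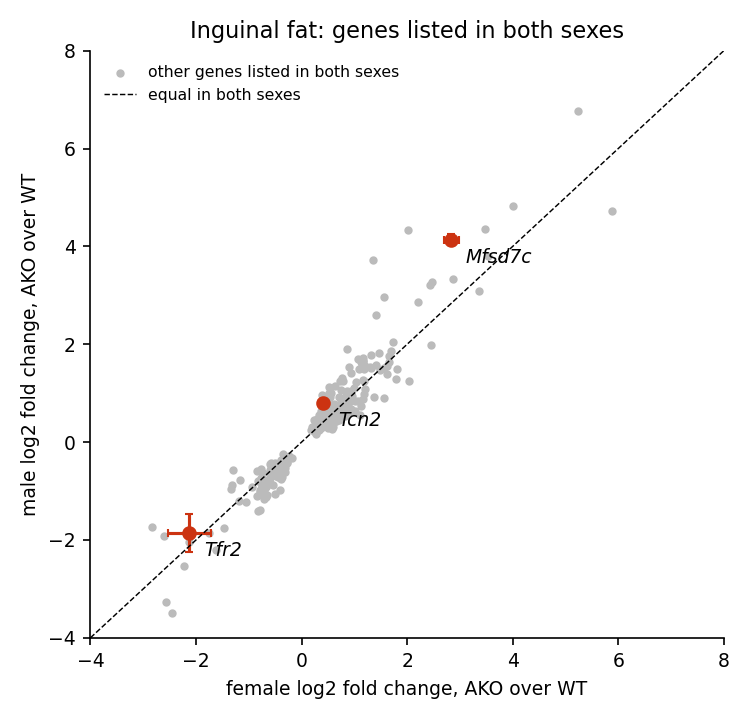
Log2 fold change of AKO over WT in male (vertical axis) against female inguinal fat (horizontal axis) for the 290 genes listed in both, with the 3 members in red and bars for the standard error. Mfsd7c lies above the dashed line of equal change (4.14 against 2.84), and Tfr2 lies close to it with wide bars.

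Genes whose counts followed the members most closely were ranked by Pearson's r of log2 normalized counts, which describes these libraries only, since all were listed for the same genotypes and r follows the gap between WT and AKO. Over the 16 inguinal libraries, with the mean of each sex removed, the genes most like Mfsd7c were the ectonucleotidase gene Nt5e (r = 0.983), Gpr179 (0.981) and Nipsnap1 (0.979). Those most like Tcn2 were the desaturase gene Fads1 (r = 0.979), Nipsnap1 (0.964) and Gm2a, which encodes a lysosomal lipid-binding activator (0.962). Those most like Tfr2 were Ltbp3, a latent TGF-beta binding protein gene (r = 0.929), Zfp598 (0.927) and the proteoglycan gene Cspg4 (0.917). Over the 8 female libraries, Ttpa was most like Mfsd7c (r = 0.989), Klb, the beta-klotho co-receptor gene (0.989), and A730098P11Rik (0.988).

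To set the members beside other genes of the same processes, 7 lists of micronutrient handling were used, with 217 distinct genes apart from the members. In male inguinal fat 23 of them were listed (10.6%), 9 higher and 14 lower in AKO. In female inguinal fat 20 were listed (9.22%), 11 higher and 9 lower. In perigonadal fat 29 were listed (13.4%), 11 higher and 18 lower. These shares stand beside 8.56%, 5.83% and 11.1% of all genes tested, and a list gene that was never tested counts here as not listed. The median log2 fold of the listed list genes was -0.26 in male inguinal, 0.22 in female inguinal and -0.39 in perigonadal fat, against 0.23, 0.30 and 0.21 over all genes listed in each of the authors' deposited tables.

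The haem and iron list was the longest and had the most listed genes. Of 63 list genes without the members, 3 rose and 8 fell in male inguinal fat, 4 rose and 4 fell in females, and 4 rose and 8 fell in perigonadal fat. Of all genes tested, 4.54%, 3.2% and 5.68% were listed higher and 4.01%, 2.63% and 5.46% lower, in the same order. The haem synthesis gene Alas1, whose product catalyses the first and rate-limiting step, fell from 3827 ± 793 to 1921 ± 378 normalized counts in males (SD, n = 4). In females Alas1 fell from 4045 ± 339 to 3067 ± 414. Alad, which acts at the next step of that pathway, fell in males by 0.62 on the log2 scale, and Ppox, a late step, fell by 0.31. Perigonadal fat gave log2 folds of -0.79 ± 0.15 SE for Alas1 and -0.68 ± 0.12 for Alad in the authors' deposited table, while Ppox was not listed there. Of Alas1, Alad and Ppox, Alas1 alone was listed in females, which is not a test of a difference between the sexes.

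Trf, the gene of the iron carrier transferrin, which is the ligand of the Tfr2 product, fell in all 3 comparisons. It went from 41542 ± 8930 to 25407 ± 2959 normalized counts in male inguinal fat and from 46790 ± 1192 to 34876 ± 6424 in females (SD, n = 4). Its log2 fold in perigonadal fat was -1.10 ± 0.12 SE in the authors' deposited table. Tfrc, the gene of the main cellular transferrin receptor, moved opposite to Tfr2 in inguinal fat and rose from 528 ± 44.4 to 715 ± 49.6 in males and from 804 ± 47.2 to 1193 ± 217 in females. Tfrc was not listed in perigonadal fat. Mfsd7a, a relative of Mfsd7c in the same carrier family, rose from 128 ± 17.3 to 225 ± 22.6 in males and from 241 ± 18.2 to 338 ± 36.1 in females, and had a log2 fold of 0.85 ± 0.18 SE in perigonadal fat in the authors' deposited table. The ferroxidase gene Cp, ceruloplasmin, rose 1.69-fold in male inguinal and 1.51-fold in perigonadal fat in the authors' deposited table. In females the haptoglobin gene Hp fell from 21778 ± 5255 to 10410 ± 1597 and the siderophore-binding gene Lcn2 by 0.55 on the log2 scale, while the haemoglobin scavenger receptor gene Cd163, a macrophage gene, rose from 1509 ± 164 to 2517 ± 673. Hp was also listed lower in perigonadal fat, at a log2 fold of -0.69 ± 0.15 SE in the authors' deposited table. Cybrd1, a ferric reductase gene, was listed for perigonadal fat, at a log2 fold of -0.87 ± 0.26 SE in the authors' deposited table.

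The vitamin B12 and folate list held 33 genes beside Tcn2. In male inguinal fat 1 rose and 2 fell, in females 3 rose and 1 fell, and in perigonadal fat all 5 listed genes fell. The shares of all genes tested, in the same order, were 4.54%, 3.2% and 5.68% listed higher and 4.01%, 2.63% and 5.46% listed lower. Slc46a1, the proton-coupled folate transporter gene, fell from 159.5 ± 11.9 to 109.6 ± 9.60 normalized counts in males and had a log2 fold of -0.79 ± 0.16 SE in perigonadal fat in the authors' deposited table. Mmadhc, which routes vitamin B12 inside the cell, fell by 0.25 on the log2 scale in males, and the folate carrier gene Slc19a1 rose from 438 ± 75.2 to 612 ± 97.2 with overlap between the groups. In females the lysosomal B12 exporter gene Lmbrd1 rose from 1836 ± 35.7 to 2120 ± 92.3, Ggh rose from 1015 ± 57.5 to 1349 ± 131, and the folate receptor gene Folr2 rose from 1395 ± 136 to 1941 ± 378 with overlap. The folate receptor gene Folr1 fell in females from 76.6 ± 6.17 to 35.9 ± 15.7. In perigonadal fat, Folr1, Aldh1l1 and Mmab had log2 folds of -0.91 ± 0.27, -0.65 ± 0.15 and -0.28 ± 0.10 SE in the authors' deposited table.

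Among other vitamin and choline genes, Vnn3, a pantetheinase gene, rose from 581 ± 75.3 to 1220 ± 45.5 normalized counts in males and from 777 ± 105 to 1307 ± 64.4 in females, and 2.20-fold in perigonadal fat in the authors' deposited table. Slc5a6, the gene of the multivitamin transporter for biotin and pantothenate, fell from 958 ± 152 to 552 ± 143 in males and from 1939 ± 283 to 1193 ± 204 in females. The NAD synthesis gene Nmnat3 fell from 322 ± 20.8 to 198 ± 37.4 in males, and its log2 fold in perigonadal fat was -0.87 ± 0.14 SE in the authors' deposited table. The choline transporter gene Slc5a7 was lower in males at low counts, 25.8 ± 13.1 against 5.74 ± 4.59, with overlap between libraries, and had a log2 fold of -1.34 ± 0.28 SE in perigonadal fat in the authors' deposited table. In females Slc44a4, of the choline transporter-like family, fell from 345 ± 40.3 to 146 ± 46.5, and Pank1, which starts coenzyme A synthesis from vitamin B5, from 527 ± 62.6 to 288 ± 30.2. The thiamine transporter gene Slc19a3 had a log2 fold of 0.78 ± 0.22 SE in perigonadal fat in the authors' deposited table.

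The vitamin A list had 3 listed genes of 29 in males, 2 in females and 4 in perigonadal fat. Of all genes tested, 8.56%, 5.83% and 11.1% were listed there, in the same order. Rxra, a retinoid receptor gene, fell in each comparison, by 0.33 on the log2 scale in males and 0.19 in females. The retinaldehyde dehydrogenase gene Aldh1a1 rose in males from 1333 ± 308 to 2043 ± 400 normalized counts and the receptor gene Rarg from 912 ± 94.6 to 1129 ± 95.9, both with overlap between libraries. The retinoic acid hydroxylase gene Cyp26b1 rose in females from 202 ± 69.6 to 396 ± 69.1. In perigonadal fat the retinol-binding protein gene Rbp7 had a log2 fold of -0.53 ± 0.17 SE and the retinol dehydrogenase gene Rdh11 0.42 ± 0.14 in the authors' deposited table. Of 8 vitamin D genes, Vdr, the vitamin D receptor gene, was listed for perigonadal fat alone, with a log2 fold of 3.19 ± 0.23 SE in the authors' deposited table. Of 37 zinc and copper genes, Commd1 fell by 0.26 on the log2 scale in males and the zinc transporter gene Slc39a13 rose from 1010 ± 54.0 to 1187 ± 70.5 in females. In perigonadal fat Slc39a13 had a log2 fold of 0.28 ± 0.07 SE and the extracellular superoxide dismutase gene Sod3 one of -0.50 ± 0.07 in the authors' deposited table.

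**Figure D4:**
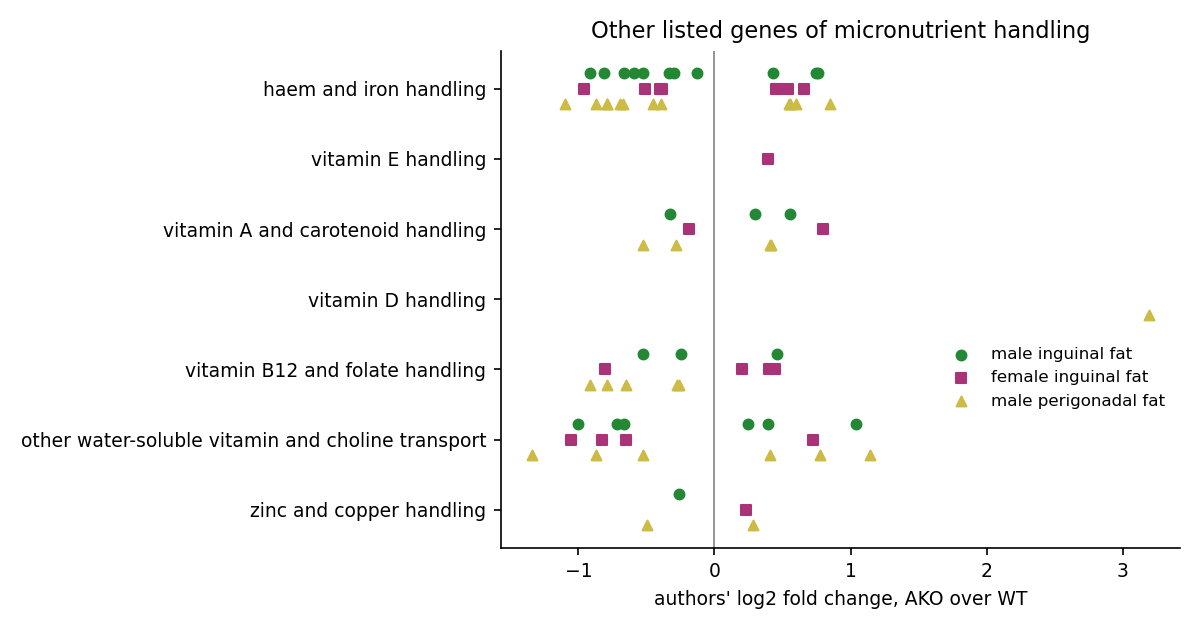
Log2 fold change of AKO over WT from the authors' deposited tables for each listed gene of 7 micronutrient handling lists, without the 4 members, by fat depot and sex. Points left of 0 were lower in AKO, the haem and iron list has 8 of 11 such points in male inguinal fat, and the single vitamin D point at 3.19 is Vdr.

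Markers of other cells moved with genotype in the same libraries. Of all genes tested, 8.56% were listed in male inguinal, 5.83% in female inguinal and 11.1% in perigonadal fat. In females 5 of 12 macrophage markers were listed, all higher, with a summed level of 13900 to 17377 normalized counts in WT and 17450 to 24121 in AKO libraries. Of 12 epithelial markers 5 were listed in females, all lower, at 15907 to 20282 in WT and 7247 to 11282 in AKO libraries. In males 1 of 13 endothelial markers was listed, Pecam1, at 3146 to 3597 in WT and 3830 to 3976 in AKO libraries, and 1 of 12 macrophage markers, Cd14, at 349 to 441 and 255 to 338. The mesothelial marker Lrrn4, 1 of 10 progenitor or mesothelial markers, was higher in AKO inguinal fat, at 24 to 41 normalized counts in WT against 100 to 139 in AKO males and 60 to 94 against 122 to 226 in females. In perigonadal fat Lrrn4 was lower, as were the other 3 listed markers of that list, Dpp4, Cd55 and Krt19. There 4 of 12 macrophage markers were listed, all higher (Cd68, Csf1r, Mrc1 and Atp6v0d2), and 2 of 12 epithelial markers, both lower (Krt7 and Krt14), in the authors' deposited table. None of the 12 hepatocyte or 10 erythroid markers was listed in any fat table, so their levels were not seen here, although Ttpa and Tfr2 are best known from those cells. The part of other cell types in the members' values was not tested.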

How the data were processed

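Libraries were made from Trizol-extracted RNA with the stranded TruSeq mRNA kit, per the labels' protocols. STAR, DESeq2 and mm10 are named in the submitters' processing notes, while the sources used here give no read counter, strand setting or annotation. Raw read counts were deposited as whole numbers for the genes the authors listed (1074 in male and 790 in female inguinal fat). Their deposited comparison tables give, per the file headers, the mean normalized count of all libraries (here treated as a signal), the log2 fold change, its error and p-values. Every gene listed has an adjusted p-value under 0.05 in the deposited tables. The perigonadal fold is taken as AKO over WT, as its column is named like the others. Log2 folds of single inguinal genes are edgeR values unless marked as deposited. They are not the same measure as the deposited perigonadal folds.

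Size factors were recovered from the counts and the deposited means by a least-squares solution (largest misfit 4.79e-08%), and the number of genes tested from p and adjusted p. Counts were fitted with edgeR 4.0.16 (quasi-likelihood, R 4.3.3) over each whole table, with these factors as offsets, no covariate and no filter. The SE of a log2 fold was taken as its size over the square root of F. Each fit saw only genes called for genotype, so its SE and p may be too small. The sex by genotype interaction was tested over the 290 genes in both tables with Benjamini-Hochberg adjustment. Scripts were tested on simulated data. Likeness used log2(normalized count + 1).

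Members and lists were chosen with earlier results of these data known. Named genes are the members, Bcl6, Adipoq, up to 4 genes per list and table with the largest fold, the 3 genes most like each member, and others that complete a group (Alad, Ppox, Trf and Tfrc in males, Alas1, Mfsd7a and Trf in females, Alad, Cp and Hp in perigonadal fat, and the listed cell markers), chosen after their values were seen. Alternatives were other scalings, DESeq2 1.42.0, a filter at a mean count of 10, leaving out each library, a replicate block, and for the lists a stricter adjusted p or a 1.5-fold change. Results of some genes are not reported here. Liver counts were not used. Gene positions are from GENCODE M21 (GRCm38).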

Additional observations from a re-analysis of the deposited data

Results flagged for a closer look

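Of all results, 1 was marked for a closer look, because the effect of genotype differed between the sexes by an interaction test. The male minus female difference in the log2 fold of Mfsd7c was 1.30 (edgeR adjusted p = 0.00094), with AKO above WT in every library of either sex. Mfsd7c was picked for large changes with genotype, so neither the separation nor the test is free of that choice. Sex and set of mice cannot be told apart here. In the 14 groups of 4 libraries that the members' counts form, no library stood apart from the others by Dixon's 95% criterion, which chance exceeds in about 1 of 20 groups.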

How the results depend on the processing

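No member's log2 fold changed sign in any setting, and none left the spread of replicates in males. In females the table's own total as library size gave 2.63 for Mfsd7c, 1.65 for Ttpa and 0.20 for Tcn2, and DESeq2 size factors of the table gave 1.70 for Ttpa and 0.26 for Tcn2. These scalings moved the median of all female listed genes by -0.21 and -0.16, by construction from genes chosen as changed. Leaving out 1 library gave 4.01 to 4.22 (Mfsd7c), -2.14 to -1.67 (Tfr2) and 0.77 to 0.84 (Tcn2) in males, and 2.72 to 2.90, -2.63 to -1.86 and 0.36 to 0.45 in females, with 1.81 to 1.92 for Ttpa.

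The sex difference of Mfsd7c ran from 1.17 to 1.42 without 1 library (adjusted p from 0.000135 to 0.00568). That of Tcn2 ran from 0.35 to 0.44 and never passed (adjusted p from 0.0683 to 0.286), while it passed with TMM (0.46), DESeq2 size factors (0.47), the table total (0.62) and DESeq2 (0.39), and the cause was not tested. The sex difference of all 290 genes shifted by a median of 0.072 with TMM, 0.078 with DESeq2 size factors and 0.230 with the table total. That of Tfr2, never called, ran from -0.03 to 0.76 and changed sign without male WT replicate 2 (-0.029) or female WT replicate 4 (-0.012).

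WT and AKO libraries of the same replicate number correlated weakly, from 0.0709 to 0.26 in males and from -0.296 to 0.175 in females. In all, 4 of 8 male and 2 of 8 female libraries correlated best with their own number. The male values, all above 0, leave undecided whether the numbers pair the libraries. With the replicate block the sex difference of Mfsd7c was 1.30 (adjusted p = 0.00849), and the block changed no other call.

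At an adjusted p under 0.01, list genes were 5 higher and 11 lower in male inguinal fat, 8 higher and 4 lower in females, and 8 higher and 11 lower in perigonadal fat. At a 1.5-fold change they were 3 higher and 7 lower, 3 higher and 5 lower, and 5 higher and 10 lower. The shares of all genes tested that pass these cuts were not computed, so nothing about the lists is read from these counts. Low counts limit Tfr2.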
